A study of Homo sapiens with 2 samples.

Results

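The SOX and POU neural transcription factors described here are 10 genes, SOX2, SOX4, SOX5, SOX8, SOX9, SOX11, SOX12, SOX13, POU3F2 and POU3F3, of 19775 genes that the array names. They were taken as every probe set whose only gene symbol in the platform annotation was one of these genes, which gave 30 of 54675 probe sets. Total RNA came from 2 samples labelled as U87, an established human glioblastoma line, collected 48 hours after transient transfection with a lipid reagent. One sample carried the label of a non-target siRNA and the other that of an siRNA targeting FOXM1, a forkhead factor that drives genes of the cell division cycle. Each was hybridised to 1 array, named here the non-target array and the FOXM1 siRNA array, so no replicate check, SD between samples or p-value is possible.

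SOX proteins bind the minor groove of DNA through an HMG box and bend it, and they usually act on a target together with a partner factor. POU class III proteins bind an octamer-like sequence through a POU-specific domain and a homeodomain, and are known as partners of SOX2 in neural progenitors. The SOX genes fall into groups by sequence: SoxB1 factors such as SOX2 keep progenitors undifferentiated, SoxC factors (SOX4, SOX11, SOX12) act in neuronal maturation, SoxD factors (SOX5, SOX13) lack a transactivation domain of their own, and SoxE factors (SOX8, SOX9) act in glia, neural crest and cartilage. In glioma, SOX2 and POU3F2 are known from stem-like tumour cells.

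Values are signal intensities, and a log2 difference is the FOXM1 siRNA array minus the non-target array. The floor of an array, below which a signal was not told from background, was the 90th percentile of its 135 olfactory receptor probe sets, which gave 60.8 on the non-target array and 77.7 on the FOXM1 siRNA array. A probe set above the floor on 1 array has only a bound, written as "at least". The log2 differences of probe sets of the same gene spread around their mean with a pooled SD of 0.50, over 5476 genes with several probe sets above both floors. That SD is the only error available and does not cover the spread between cultures. In a bulk sample, fewer cells with a transcript and less of it per cell cannot be told apart.

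Some values bear on both labels. FOXM1 had 1 probe set, which read 1520 on the non-target array and 1343 on the FOXM1 siRNA array, a log2 difference of -0.18 that lay within the SD between probe sets. CDKN2A read 3467 against 421, and on the FOXM1 siRNA array its 9p21 neighbours were lower too, MTAP at least 7.96-fold and CDKN2B at least 4.50-fold. This region is known to be deleted in U87 cells, so an effect of the siRNA and a difference between the cells cannot be told apart in any value below. Among 9 measured mesenchymal markers, 7 were at least 2-fold higher on the FOXM1 siRNA array, beside 16.0% of all detected genes. The largest were COL6A3 18.2-fold, COL1A2 16.8-fold, TNC 14.1-fold and CD44 13.2-fold. TAGLN went the other way at 95.0 and 14.7 (at least 1.22-fold lower), and THY1 lay below both floors. The summed signal of the 9 was 9288 on the non-target array and 113758 on the other. The summed signal of 9 epithelial markers was 12837 and 1305, mostly through DSP (28.9-fold lower) and KRT18 (6.99-fold lower). The other 4 detected epithelial markers had values or bounds under 2-fold, KRT8, CLDN7 and EPCAM on the higher side and CDH1 on the lower. The 10 glial markers summed to 23031 and 44910, nearly all of it VIM (21179 and 40017). CHI3L1 was 9.68-fold and NES at least 4.29-fold higher. The other 6 of 8 detected, OLIG1, OLIG2 and S100B among them, had no value or bound past 2-fold in their brightest probe set. A further VIM probe set was at 1.94 on the log2 scale, past 2-fold higher. The astrocyte genes GFAP and AQP4 lay below the floor on both arrays. The 9 neuronal markers summed to 1244 and 2604. Of the 3 detected, SNAP25 was 18.4-fold higher, NEFM 2.71-fold lower and NEFL 1.13-fold lower in its brightest probe set. A further NEFL probe set went the other way, at 0.77 on the log2 scale. The 10 neural crest markers summed to 4499 and 2004, mostly through TFAP2A (6.07-fold lower). Of 7 detected, 3 were past 2-fold lower, beside 15.4% of all detected genes, and 4 were not, with EDNRB 1.74-fold higher. The 7 blood cell markers summed to 249 and 370. The 3' to 5' signal ratio of ACTB was 6.79 and 4.21 on the non-target and FOXM1 siRNA arrays, and that of GAPDH 1.26 and 1.09. The part of any of these in the SOX and POU values was not tested.

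Most detected SOX and POU members were lower on the FOXM1 siRNA array. Of the 10 genes, 9 had their brightest probe set above the floor on at least 1 array, 7 of them on both arrays and 2 (SOX2 and SOX8) on the non-target array only. Of these 9, 6 were at least 2-fold lower, whereas 15.4% of 13865 detected genes were at least 2-fold lower. A difference of 4-fold or more on the lower side was found for 5 members and 4.08% of detected genes, and one of 8-fold or more for 4 members and 1.11% of detected genes. One member, SOX5, was at least 2-fold higher, beside 16.0% of detected genes, and 2, SOX9 and SOX13, differed by less. The median log2 difference of the detected members was -2.36, with bounds at the bound, and that of all detected genes -0.02. Being detected already depends on the brighter array, so these figures describe 9 genes and do not cover SOX11. The members were also chosen with earlier results of these data known. The shares of all genes are therefore given for scale and are no test of the members. The count of lower members was 5 or 6 under each alternative tried, whereas the count of higher members ran from 0 to 2.

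By probe set, 13 of the 30 lay above both floors, 7 above the floor of the non-target array only, none above that of the FOXM1 siRNA array only and 10 above neither. Among the 20 detected probe sets 11 were at least 2-fold lower, against 13.6% of 26582 detected probe sets with 1 symbol, and 2 at least 2-fold higher, against 15.4%. Probe sets of a gene share its transcripts and are not separate samples. The plot of all 30 signals shows the lower members with the non-target array far to the right, and the dim probe sets with both arrays left of the floors.

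**Figure D1:**
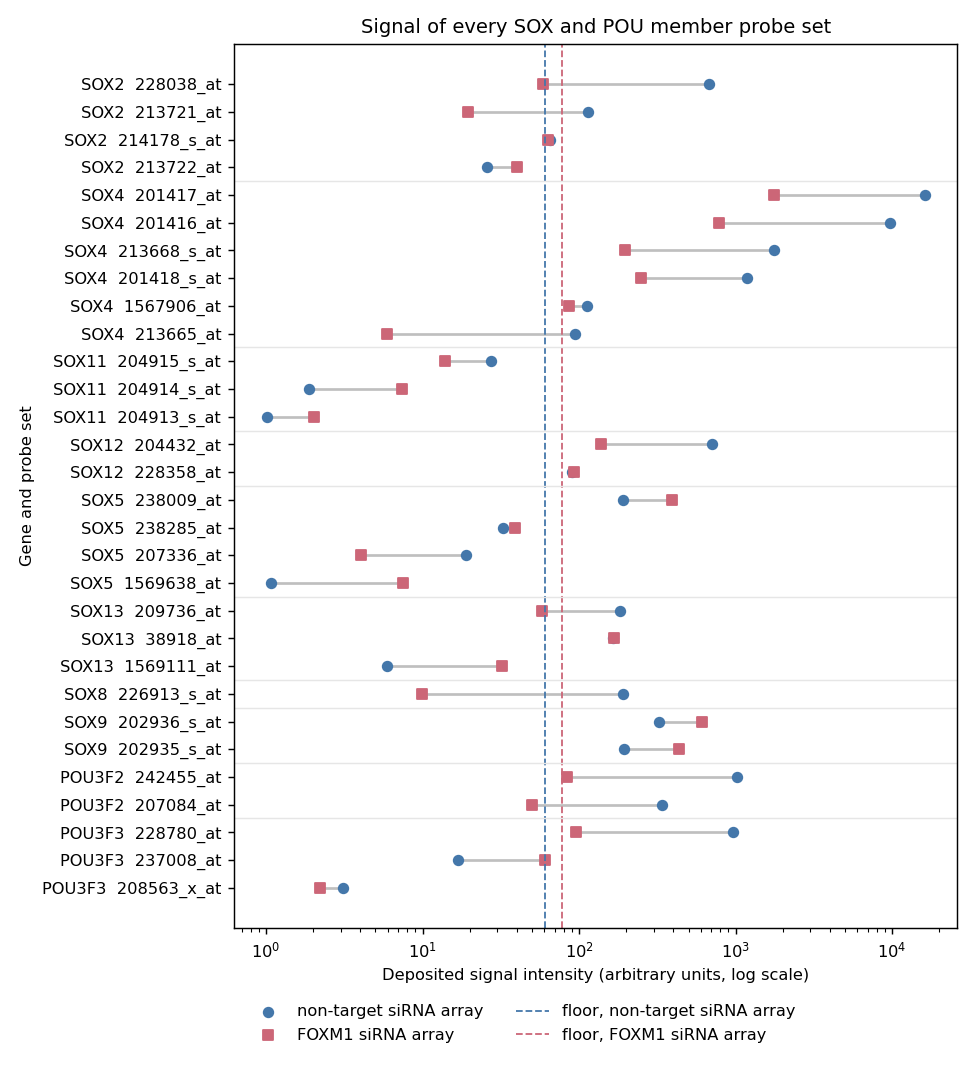
Signal intensity (arbitrary units, log axis) of each of the 30 member probe sets, with 1 point for the non-target array, 1 for the FOXM1 siRNA array and dashed lines at their floors of 60.8 and 77.7. The 4 brightest SOX4 probe sets and the brightest ones of SOX2, SOX12, POU3F2 and POU3F3 have the non-target array to the right, those of SOX5 and SOX9 have the FOXM1 siRNA array to the right, and all 3 SOX11 probe sets lie left of both floors.

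SOX2, the SoxB1 factor of neural progenitors and a stem cell factor, was represented by 4 probe sets that did not all give the same picture. Its brightest probe set, 228038_at, read 680 on the non-target array and 59.2 on the FOXM1 siRNA array, where it lay below the floor, so SOX2 was at least 8.75-fold lower there. A further probe set, 213721_at, read 114 and 19.5, again above the floor on the non-target array only, which gives a bound of at least 1.46-fold lower. The other 2 carried little information: 214178_s_at read 65.4 and 63.7, close to the floors on both arrays, and 213722_at read 25.8 and 40.0, below both. SOX2 was thus well above background in 1 probe set on 1 array. The median over its detected probe sets was a log2 difference of at most -0.55, under 2-fold.

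POU3F2, also known as BRN2, is a neural POU factor that pairs with SOX2 on enhancers of neural progenitors. Its probe set 242455_at read 1015 on the non-target array and 84.2 on the FOXM1 siRNA array, just above the floor there, a 12.1-fold difference. Its other probe set, 207084_at, read 340 and 50.02 and was at least 4.37-fold lower. Both POU3F2 probe sets therefore lay on the same side, and of 13449 genes with a fold or bound, POU3F2 held rank 71 from the lowest.

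POU3F3, or BRN1, is the close relative that overlaps with POU3F2 in the developing cortex and also acts in the kidney tubule. It read 968 on the non-target array and 95.3 on the FOXM1 siRNA array in 228780_at, a 10.1-fold difference at rank 97 from the lowest. Its other probe sets lay below both floors, 237008_at at 16.8 and 60.5 and 208563_x_at at 3.09 and 2.20, and so add nothing on direction. POU3F3 thus rests on 1 probe set. Its nearest detected neighbours in the RefSeq gene order were lower too: the noncoding RNA gene PANTR1 read 232 and 22.9 (at least 2.98-fold lower) and MRPS9, a mitochondrial ribosomal protein gene, 3449 and 1176 (2.93-fold lower).

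SOX4, a SoxC factor expressed in many progenitors and tumours, had 4 probe sets at least 2-fold lower, more than any other member. Its brightest, 201417_at, read 16108 on the non-target array and 1764 on the FOXM1 siRNA array, a 9.13-fold difference. Next, 201416_at read 9732 and 787, a 12.4-fold difference, 213668_s_at read 1763 and 195, a 9.06-fold difference, and 201418_s_at read 1179 and 248, a 4.75-fold difference. All 4 were lower on the FOXM1 siRNA array and well above the floor of both arrays. The remaining 2 were dim on both arrays: 1567906_at read 113 and 86.0 (1.31-fold lower), and 213665_at read 94.1 and 5.89, below the floor of the FOXM1 siRNA array (at least 1.21-fold lower). Over the 5 probe sets above both floors the log2 differences ran from -3.63 to -0.39, with an SD of 1.30 and a median of -3.18. SOX4 ranked 120 from the lowest among the 13449 genes. Under the 10 alternatives its log2 difference ran from -3.49 to -2.71.

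SOX12, another SoxC factor with broad low expression, gave different values by probe set. The brighter one, 204432_at, read 708 on the non-target array and 138 on the FOXM1 siRNA array, a 5.14-fold difference. The other, 228358_at, read 90.2 and 92.5, a log2 difference of 0.04 close to the floors. Their SD was 1.70, and their median of -1.16 was still past 2-fold. SOX11, the SoxC factor of immature neurons, was below the floor of both arrays in all 3 of its probe sets. On the non-target array they read 27.2, 1.89 and 1.01, and on the FOXM1 siRNA array 14.0, 7.42 and 2.02 in the same order. No fold is given for SOX11, and its level was not told from background on either array.

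The SoxE members lay on opposite sides. SOX8, known from glia and testis, had 1 probe set, which read 192 on the non-target array and 9.87 on the FOXM1 siRNA array, and was at least 2.47-fold lower there. With a floor 2 times as high the bound for SOX8 was -0.31 on the log2 scale, under 2-fold. SOX9, a regulator of glial fate and of cartilage, was higher on the FOXM1 siRNA array in both of its probe sets. One, 202936_s_at, read 325 on the non-target array and 613 on the FOXM1 siRNA array (1.89-fold higher), and the other, 202935_s_at, read 193 and 436 (2.26-fold higher). The SD of these 2 log2 differences was 0.19, and both lay above the pooled SD between probe sets. Under hybridisation control scaling the brighter SOX9 value was 0.61.

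The SoxD members gave a value just past 2-fold for SOX5 and one near 0 for SOX13. SOX5, which acts with SOX9 in cartilage and in the timing of cortical neurons, was above the floors in 1 of 4 probe sets, 238009_at, at 192 on the non-target array and 394 on the FOXM1 siRNA array, 2.05-fold higher. The other SOX5 probe sets, at 32.8, 18.8 and 1.07 on the non-target array and 39.2, 4.04 and 7.53 on the FOXM1 siRNA array, lay below both floors. SOX5 was just past the threshold, and with the hybridisation controls set equal it was at 0.73 on the log2 scale, under 2-fold. SOX13, a SoxD factor known from T cells and the neural tube, gave 164 and 168 in 38918_at, a log2 difference of 0.04 that was -0.27 with those controls set equal and close to 0 with either sign under quantile and loess scaling. Its probe set 209736_at read 183 and 57.5 and was at least 2.35-fold lower, while 1569111_at lay below both floors at 5.93 and 32.1. For SOX13 the probe sets thus did not agree on whether the gene differed.

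**Figure D2:**
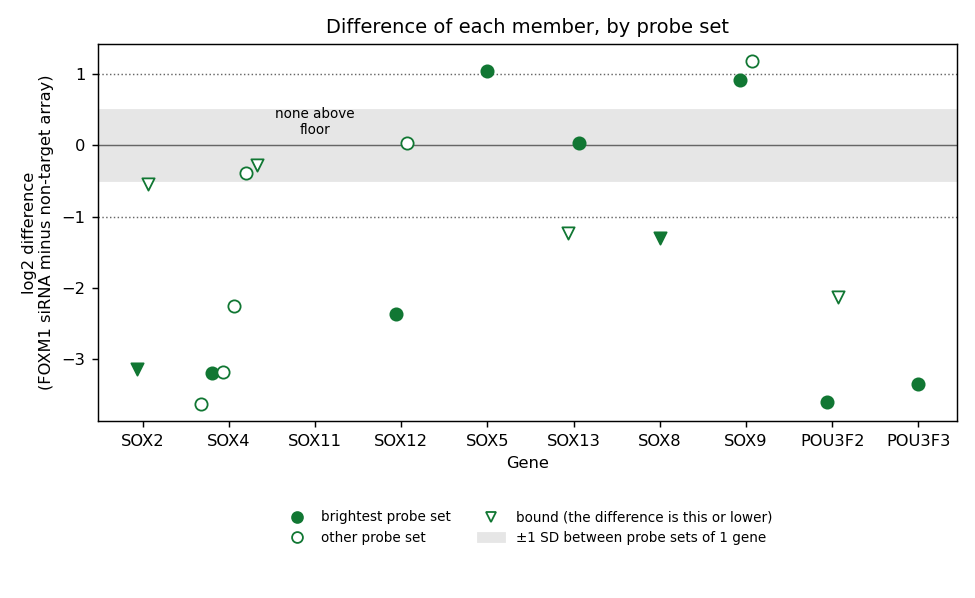
Log2 difference between the arrays for each member probe set with a fold (circles) or a bound (triangles), filled for the brightest probe set of the gene, with a grey band of 1 SD (0.50) between probe sets of a gene and dotted lines at 2-fold. SOX4, SOX12, SOX2, POU3F2 and POU3F3 have their brightest probe set between -2.36 and -3.59, SOX5 and SOX9 lie near 1, and SOX12 and SOX13 have probe sets both near 0 and past 2-fold lower.

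Set among all detected genes, several members lay in the lower tail. POU3F2, POU3F3, SOX4 and SOX2 each lay within the lowest 0.959% of the 13449 genes, SOX12 within the lowest 2.61% and the bound of SOX8 within the lowest 10.5%. Since SOX2 and SOX8 have only bounds, their own places may be lower, and SOX8 was at -4.28 on the log2 scale without a floor. SOX5 and SOX9 were matched or exceeded by 15.8% and 18.3% of genes.

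**Figure D3:**
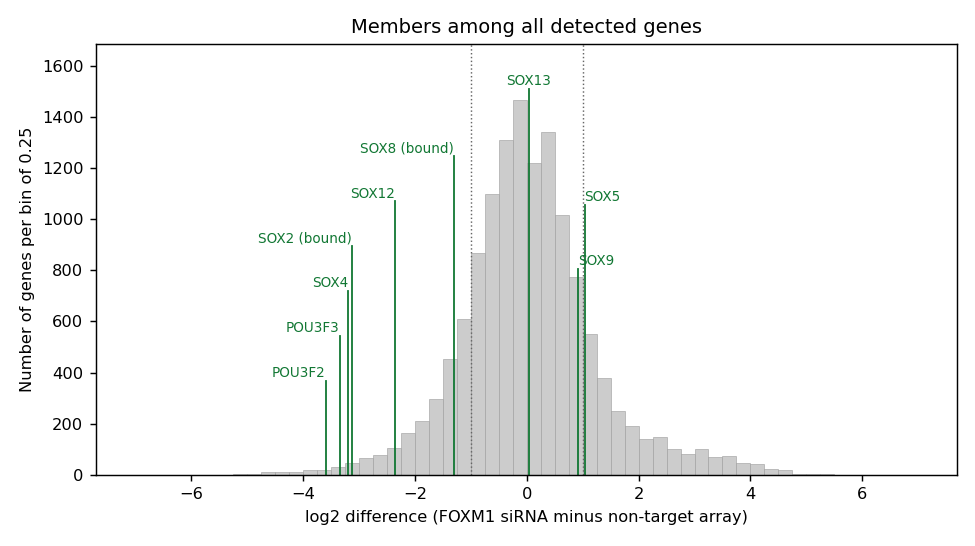
Number of detected genes per bin of log2 difference, for the 13449 genes with a fold or bound, with a vertical line at the value of each detected member and dotted lines at 2-fold; line heights only separate the labels. POU3F2, POU3F3, SOX4, SOX2 and SOX12 stand in the lower tail, and SOX13, SOX9 and SOX5 in the body of the distribution.

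The stretch before the start of a gene is shown for the 4 members that were at least 5-fold lower with both arrays above the floor. These are 250 bases each from RefSeq, build GRCh38.p14, written 5′ to 3′ along the gene, with capitals for every match to a motif searched on both strands. The array values were made without a genome, so the sequences show the region and not a measurement of it.

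SOX4, chr6:21593501-21593750, plus strand: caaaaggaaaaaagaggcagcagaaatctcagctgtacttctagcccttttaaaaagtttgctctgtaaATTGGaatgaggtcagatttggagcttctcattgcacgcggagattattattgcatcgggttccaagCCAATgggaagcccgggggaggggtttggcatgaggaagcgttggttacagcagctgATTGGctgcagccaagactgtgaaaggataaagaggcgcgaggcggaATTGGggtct

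SOX12, chr20:325302-325551, plus strand: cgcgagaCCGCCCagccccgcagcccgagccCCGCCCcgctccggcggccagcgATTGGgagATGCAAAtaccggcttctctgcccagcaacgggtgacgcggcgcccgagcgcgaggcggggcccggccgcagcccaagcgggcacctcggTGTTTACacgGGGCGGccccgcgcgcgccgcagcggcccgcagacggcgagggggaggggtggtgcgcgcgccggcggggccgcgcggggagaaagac

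POU3F2, chr6:98834324-98834573, plus strand: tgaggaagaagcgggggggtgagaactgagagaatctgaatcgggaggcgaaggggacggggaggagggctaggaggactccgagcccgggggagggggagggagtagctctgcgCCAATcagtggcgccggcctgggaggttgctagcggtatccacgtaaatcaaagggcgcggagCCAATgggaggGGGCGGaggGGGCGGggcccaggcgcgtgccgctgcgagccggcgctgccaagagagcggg

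POU3F3, chr2:104853865-104854114, plus strand: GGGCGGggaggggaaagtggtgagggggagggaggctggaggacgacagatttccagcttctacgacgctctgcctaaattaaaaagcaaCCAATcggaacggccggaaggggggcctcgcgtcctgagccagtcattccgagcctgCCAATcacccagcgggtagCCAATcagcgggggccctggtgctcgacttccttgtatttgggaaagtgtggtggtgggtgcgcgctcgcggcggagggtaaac

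The motifs searched were the TATA box (TATAAA), the CCAAT box (CCAAT), the GC box (GGGCGG), a SOX motif (ACAATG), part of the POU octamer (ATGCAAA), a forkhead motif (TGTTTAC) and the CHR element of cell cycle genes (TTTGAA). None of these motifs contains another. RefSeq promoters were at hand for 7 members, SOX2, SOX4, SOX5, SOX12, SOX13, POU3F2 and POU3F3; those of SOX8, SOX9 and SOX11 are named only. A CCAAT box was present in 5 of the 7 and in 32.0% of the 35116 promoters of the same length, and a GC box in 6 of the 7 and in 42.6% of all. The octamer part was found in SOX2 and SOX12 (3.94% of all promoters), and the forkhead motif in SOX12 (2.98%), where both stand in the sequence above. The SOX motif was found in SOX5 (9.29%). Neither the TATA box (10.7%) nor the CHR element (13.3%) matched in these windows of the 7. GC content ran from 48.8% in SOX4 to 79.2% in SOX12, beside a median of 58.0% over all promoters. These matches describe letters only.

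The nearest detected gene on either side of each member was looked up after the values of the members were known. Of 20 such neighbours, 4 were at least 2-fold lower and 2 at least 2-fold higher, beside 15.4% and 16.0% of all detected genes. All 4 lower ones lay beside POU3F2, POU3F3 or SOX4. Besides PANTR1 and MRPS9 they were CDKAL1 beside SOX4 (417 and 175, 2.38-fold) and NDUFAF4 beside POU3F2 (7467 and 3545, 2.11-fold). On the other side, HDGFL1 beside SOX4 was 1.61-fold higher and FBXL4 beside POU3F2 was at -0.05 on the log2 scale. With so few neighbours, no pattern can be read from these counts. SOX2 lay between DNAJC19 and ATP11B, with log2 differences of -0.28 and 0.17. The 2 higher neighbours were BCAT1 beside SOX5 (4330 and 9809, 2.27-fold) and NRSN2-AS1 beside SOX12 (90.2 and 192, 2.12-fold).

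Other genes of both families were mostly not detected. Of 11 further SOX genes 8 lay below both floors, among them the SoxB1 genes SOX1 and SOX3 and the SoxE gene SOX10, which marks oligodendrocytes and melanocytes. SOX7, a SoxF factor of the endothelium, read 318 on the non-target array and 28.4 on the FOXM1 siRNA array and was at least 4.09-fold lower. SOX6, the SoxD partner of SOX5, gave log2 differences of -0.26 and -0.76 in its probe sets above both floors. SOX15 gave -0.37 in one probe set (235 and 182) and 1.46 in the other (105 and 290). Of 11 measured genes in the POU list, which also held the coactivator POU2AF1, 8 lay below both floors, among them POU3F1 and POU3F4, the remaining genes of class III.

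The detected POU genes outside the member list lay on opposite sides. POU4F1, or BRN3A, a factor of sensory neurons, read 656 on the non-target array and 133 on the FOXM1 siRNA array in one probe set (4.95-fold lower) and 605 and 97.3 in the other (6.22-fold lower). POU2F2, or OCT2, known from B cells and neurons, was 8.40-fold higher in 227749_at at 120 and 1012, and 6 of its 7 probe sets were at least 2-fold higher. The exception, 211660_at, read 120 and 93.9. POU6F1 was at least 1.83-fold lower in its brightest probe set at 142 and 75.3, and past 2-fold with loess scaling (at most -1.01 on the log2 scale) or with the hybridisation controls set equal (at most -1.18). A further POU6F1 probe set went the other way, at 37.8 and 82.7, at least 1.36-fold higher. Of the noncoding RNA genes that lie at SOX loci, SOX21-AS1 read 115 and 6.24 (at least 1.48-fold lower), and SOX2-OT, SOX1-OT and SOX9-AS1 lay below both floors.

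Several other transcription factors of neural progenitors were also lower on the FOXM1 siRNA array. Of 21 detected members of this list, 12 were at least 2-fold lower (57.1%), beside 15.4% of all detected genes. A further 8 were under 2-fold or without a fold, and 1 was at least 2-fold higher. The median log2 difference of the list was -1.10. The list was chosen with earlier results of these data known, so its excess over all genes is no independent support. The count of lower genes was 9 of 21 with the median of probe sets in place of the brightest. ID4, an inhibitor of bHLH factors, read 7372 on the non-target array and 597 on the FOXM1 siRNA array (12.4-fold lower), with 4 of its 5 probe sets at least 2-fold lower and the 3 above both floors between -3.96 and -3.41 on the log2 scale. The Notch targets HES1 and HEY1 read 2864 and 232 (12.3-fold lower) and 16145 and 1657 (9.75-fold lower). ZIC1 was the only gene of the list past 2-fold higher, at 150 and 1962, 13.0-fold, while its relative ZIC2 was 4.89-fold lower. Under 2-fold, NFIX, MEIS2, NR2F1 and NFIB lay on the higher side, with log2 differences of 0.90, 0.59, 0.48 and 0.42. HES6 at -0.71 and the bound of OLIG1 at -0.54 lay on the lower side. ZIC2 and the next genes were named after their values were seen. SALL2, known with SOX2, POU3F2 and OLIG2 from glioma stem-like cells, read 1684 and 213 (7.90-fold lower), and OLIG2 read 270 and 266, a log2 difference of -0.02. PAX6, a partner of SOX2 in the eye and cortex, was 2.07-fold lower at 1607 and 776. Its other probe set was at -0.70 on the log2 scale, under 2-fold.

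Markers of neural progenitors, a list not chosen as targets of SOX or POU factors, were split. Among 13 detected neural progenitor markers, 4 passed 2-fold on the lower side and 2 on the higher side (median 0.23), 30.8% and 15.4% beside 15.4% and 16.0% of all detected genes. LIN28B, an RNA-binding protein of embryonic progenitors, read 7510 on the non-target array and 707 on the FOXM1 siRNA array (10.6-fold lower), IGF2BP1 514 and 21.7 (at least 6.61-fold lower) and the tubulin gene TUBB2B 1144 and 185 (6.18-fold lower). NES, the intermediate filament nestin and a SOX2 and POU target, was at least 4.29-fold higher at 54.0 and 261. SOX2 itself and NES therefore lay on opposite sides.

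The list drawn up as neuronal genes downstream of SOX4 and SOX11 was split as well. Of 14 detected, 4 passed 2-fold on the lower side and 5 on the higher side (median 0.29). These are 28.6% and 35.7%, beside 15.4% and 16.0% of all detected genes. Whether each gene responds to these factors was not tested. GAP43, a growth cone protein, read 92.9 on the non-target array and 1089 on the FOXM1 siRNA array (11.7-fold higher), MAP2 89.8 and 985 (11.0-fold higher) and DPYSL3 110 and 719 (6.55-fold higher). ELAVL2, a neuronal RNA-binding protein, was 6.40-fold lower at 1994 and 311. TUBB3, a tubulin gene often used as a readout of SoxC activity and named after its value was seen, read 7687 and 10375, a log2 difference of 0.43. DCX, another such gene, lay below both floors.

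In the list drawn up as glial and myelin genes downstream of SoxE factors, 10 genes were detected. Of these 10, 1 was past 2-fold lower and 1 higher (median 0.22), beside 15.4% and 16.0% of all detected genes. CSPG4, the proteoglycan NG2 of oligodendrocyte precursors, read 77.8 on the non-target array and 656 on the FOXM1 siRNA array (8.43-fold higher). NFIA, which acts with SOX9 in gliogenesis, read 612 and 276 (2.22-fold lower). PDGFRA and CNP were at 0.78 and 0.62 on the log2 scale in their brightest probe sets. The other CNP probe set was at least 2-fold higher. With the hybridisation controls set equal, the medians of the progenitor marker, neuronal and glial lists turned to -0.08, -0.01 and -0.08, so their signs carry no information.

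**Figure D4:**
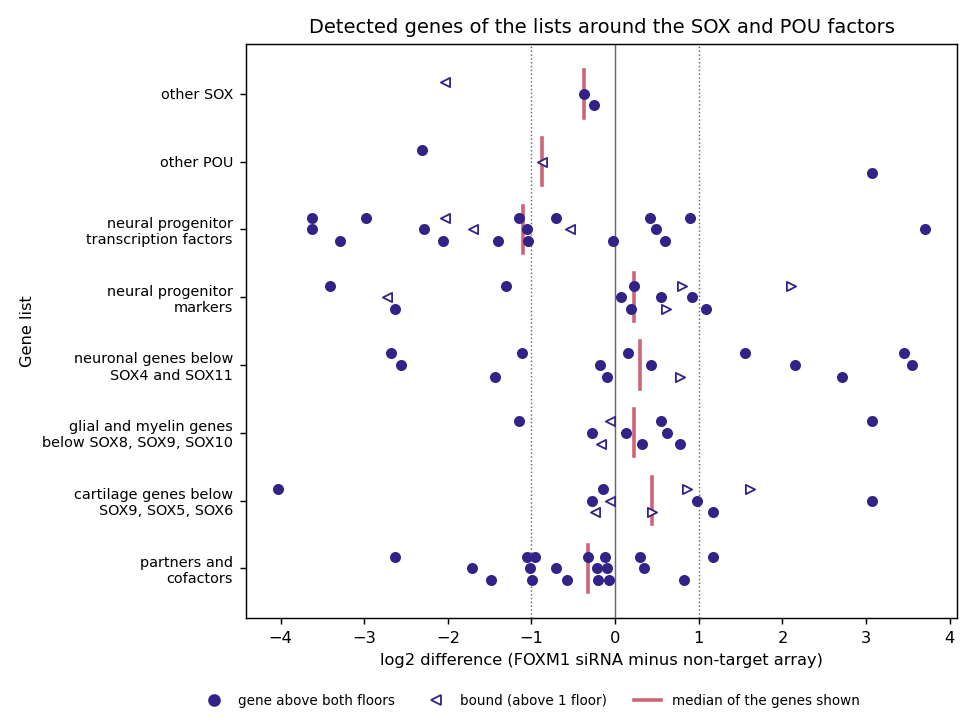
Log2 difference of every detected gene with a fold (circles) or bound (triangles) in 8 lists around the SOX and POU factors, with a red bar at the median of each list and dotted lines at 2-fold. The neural progenitor transcription factors have their median at -1.10 with 12 genes past 2-fold lower and ZIC1 alone past 2-fold higher, while the neuronal list has genes on both sides.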

How the data were processed

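Each of the 2 samples was hybridised to an array of its own. TRIZOL RNA was, per the labels' protocols, labelled with a 3' IVT kit, which reads mainly the 3' end of transcripts. The authors deposited linear signal intensity values, made with MAS5 per the submitters' processing notes; its version is not given in the sources used here. Both arrays had a trimmed mean of 500.07 (2% left out at either end), and so share a scaling target. The number of arrays limits the precision.

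Of the probe sets, 41097 had 1 gene symbol, 1801 several and 11777 were not in the annotation. Symbols were updated through gene IDs. Values under the floor were raised to it before log2. Each gene took the value of its brightest probe set (mean of both log2 signals) and counted as detected where this passed the floor of either array; 416 detected genes, whose bound ran against their signals, got no fold. Counts use a 2-fold threshold and no test. No genome was used, and protein sequences were not analysed here. The calculation was tested on simulated data with changes placed only in genes far above the floor, so the size of folds near the floor was not covered. Members and lists were chosen with earlier results of these data known. The naming rule took all members, SOX or POU genes past 2-fold, and up to 4 genes per list with the largest difference. In marker lists the rule asked for at least 4-fold. Further genes were named outside this rule, after their values were seen. Python 3.11.15, numpy 2.4.6, pandas 2.3.3 and statsmodels 0.14.6 were used; the alternatives are given at the end.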

Additional observations from a re-analysis of the deposited data

How the results depend on the processing

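The alternatives were median centring, quantile, loess (span 0.3) and hybridisation control scaling, a floor 2 times as high, no floor, a common floor, the median of probe sets, leaving out _x_at and _s_at probe sets, a pseudocount of 50 and a 1.5-fold threshold. The count of member genes at least 2-fold lower, 6, was 5 with the higher floor, the median of probe sets or without _x_at and _s_at probe sets, and 6 under the others. The count of higher member genes, 1, was 0 with the 18 hybridisation controls set equal (their median log2 difference was 0.30) or with the pseudocount, and 2 with the median of probe sets or the 1.5-fold threshold. The 2 higher probe sets became 0 under control scaling and 1 without _x_at and _s_at probe sets or with the pseudocount. Lower probe sets, 11, ran from 8 to 13. Control scaling moved the median of all genes from -0.02 to -0.30, with 23.1% of detected genes lower and 11.3% higher. SOX2 was at -0.55 with the median of probe sets, and SOX8 ran from -4.28 without a floor to -0.31. POU3F2 ran from -3.90 to -2.71 and POU3F3 from -3.65 to -2.64. No value of a member past 2-fold changed sign. SOX8 and SOX9 have only _s_at probe sets, so leaving those out gave no value for them. No paired analysis was possible because each group holds 1 sample, and leaving out a replicate was not possible either.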

Other observations

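The list drawn up as cartilage genes downstream of SOX9, SOX5 and SOX6 had genes on both sides. Whether these factors act on each gene was not tested. Of 16 measured, 5 lay below both floors, 3 were at least 2-fold higher, 1 was lower and 7 differed by less (median 0.44), so that 27.3% and 9.09% of the 11 detected stand beside 16.0% and 15.4% of all detected genes. SNAI2, a zinc finger factor of mesenchymal cells, read 1091 on the non-target array and 9173 on the FOXM1 siRNA array, 8.41-fold higher. COL11A1, a fibrillar collagen of cartilage, read 5.95 and 187 and was at least 3.07-fold higher, and CHST11, a chondroitin sulfotransferase, read 363 and 818, 2.25-fold higher. FGFR3, a growth factor receptor of cartilage and neural progenitors, was 16.3-fold lower at 2825 and 173; without _x_at and _s_at probe sets no gene of the list was lower.

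Among 19 detected partners and cofactors of SOX and POU factors, 5 passed 2-fold on the lower side and 1 on the higher side (median log2 difference -0.33), beside 15.4% and 16.0% of all detected genes. PARP1, which can bind SOX2, read 12297 on the non-target array and 1983 on the FOXM1 siRNA array (6.20-fold lower), the acetyltransferase gene CREBBP 2611 and 797 (3.28-fold lower) and CHD7, a chromatin remodeller that binds SOX2, 2185 and 784 (2.79-fold lower). SMAD3 was 2.25-fold higher at 587 and 1319. With the hybridisation controls set equal, 8 of the 19 were lower and none higher, beside 23.1% and 11.3% of all detected genes under that scaling, and with loess scaling 3 were lower, beside 14.9%. NANOG and SALL4, factors of pluripotent cells, lay below both floors.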
